A study of Mus musculus with 20 samples.

Results

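Smarce1 and 9 partner subunits of the SWI/SNF chromatin remodeling complex were followed in mouse liver after injection of a locked nucleic acid (LNA) antisense oligonucleotide against the small nucleolar RNA SNORA73. The 10 genes, out of 53028 in the table, were Smarce1, Smarca2, Smarca4, Smarcb1, Smarcc1, Smarcc2, Smarcd1, Smarcd2, Arid1a and Arid2. They were matched by gene symbol to the Ensembl identifiers of the table, and all 10 passed the filter on low counts in total and polysome RNA. Smarce1 was chosen by the rise of its mRNA in polysome RNA after SNORA73 LNA, so its values in that RNA are given as a description with no test. The partners were taken because their proteins share a complex with SMARCE1.

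SWI/SNF complexes use ATP to slide or eject nucleosomes, which opens enhancers and promoters to transcription factors. Each complex holds 1 ATPase, SMARCA2 (BRM) or SMARCA4 (BRG1), on a shared core, and further subunits set its form: ARID1A marks the BAF complex and ARID2 the PBAF complex. In liver, these complexes are known for roles in hepatocyte differentiation, lipid metabolism, regeneration and tumor suppression.

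Livers came from chow-fed male C57BL/6J mice given 3 intraperitoneal injections of LNA at 3 mg/kg, every other day. Mice 1, 2, 3, 8 and 9 received GFP LNA, which has no target in the mouse, and mice 4, 6, 10, 11 and 12 received SNORA73 LNA. The design text gives an age of 8 weeks and the polysome methods of the study an age of 10 weeks, and in the latter all mice received cycloheximide before death to hold ribosomes on mRNA. From each liver, 1 library was made from total RNA of the lysate and 1 from the polysome fractions of a sucrose gradient, 20 libraries in all with 5 mice per group. The sample labels write Snora37 where the design text and the study write SNORA73. The study designed 2 SNORA73 LNAs, and the labels do not say which of them these mice received. After a first trial of both in chow-fed mice, its in vivo work went on with the second, the more potent one. Both are printed because either may be the agent behind these comparisons, 5′ to 3′, with the locked bases in capitals.

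SNORA73 LNA 1: AAGTCgtaggaatatGCAGG

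SNORA73 LNA 2: GACTCtgagaagtcgTAGGA

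Both oligonucleotides were 20 bases long, with 5 locked bases at each end and 10 unlocked bases between them. The knockdown could not be read from these libraries, which were made from polyadenylated RNA: Snora73a had at most 2 and Snora73b at most 4 counts in any library.

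Depth was 20005389 to 42023390 counts per library in total RNA and 14852951 to 33824659 in polysome RNA. Levels are given as CPM, the counts of a gene relative to the size of its library, scaled by trimmed mean of M values (TMM) within each RNA, and were not compared between genes because transcript lengths were not used. The TMM factors of total RNA did not overlap between groups, with 1.025 to 1.071 for GFP LNA and 0.8825 to 0.9981 for SNORA73 LNA. The summed markers of hepatocytes, Kupffer cells, stellate cells, cholangiocytes, lymphocytes, neutrophils and dividing cells overlapped between the LNA groups in both RNAs, and the 6 hepatocyte markers summed to at least 42550 CPM in every library. Behind these sums, all 5 Kupffer markers had a lower mean after SNORA73 LNA in both RNAs. In total RNA so did all 5 stellate, 4 lymphocyte and 4 dividing cell markers. Hepatocyte and cholangiocyte markers went both ways there, and 2 of 3 neutrophil markers were higher. The study left out 1 mouse per group, without naming it, because it did not cluster with its group. An earlier analysis of this table took these to be mice 9 and 10, so results are given for all 10 mice and, where they differ, without those 2. Leaving out mice that do not cluster favors groups that separate.

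Smarce1 (ENSMUSG00000037935, chr11:99209047-99231017, GRCm38.p6) encodes the high mobility group (HMG) box subunit BAF57, which binds DNA and is shared by the BAF and PBAF complexes. In polysome RNA of GFP LNA livers, Smarce1 was at 36.7, 31.1, 31.0, 26.8 and 29.1 CPM in mice 1, 2, 3, 8 and 9. In polysome RNA of SNORA73 LNA livers, it was at 52.3, 57.3, 63.5, 79.2 and 63.5 CPM in mice 4, 6, 10, 11 and 12. The groups did not overlap, and the lowest SNORA73 LNA mouse stood well above the highest GFP LNA mouse. The means were 30.9 ± 3.66 and 63.2 ± 10.1 CPM (SD, n = 5 each), a log2 fold change of 1.03 (SE 0.14), which is a 2.04-fold difference. These are the values that chose the gene. Of all genes tested in this RNA, 0.0153% passed a false discovery rate (FDR) under 0.05, and nothing is read from Smarce1 being among them. The log2 fold change was 1.01 without mice 9 and 10 and 0.95 without mouse 11, the SNORA73 LNA mouse with the most Smarce1.

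**Figure D1:**
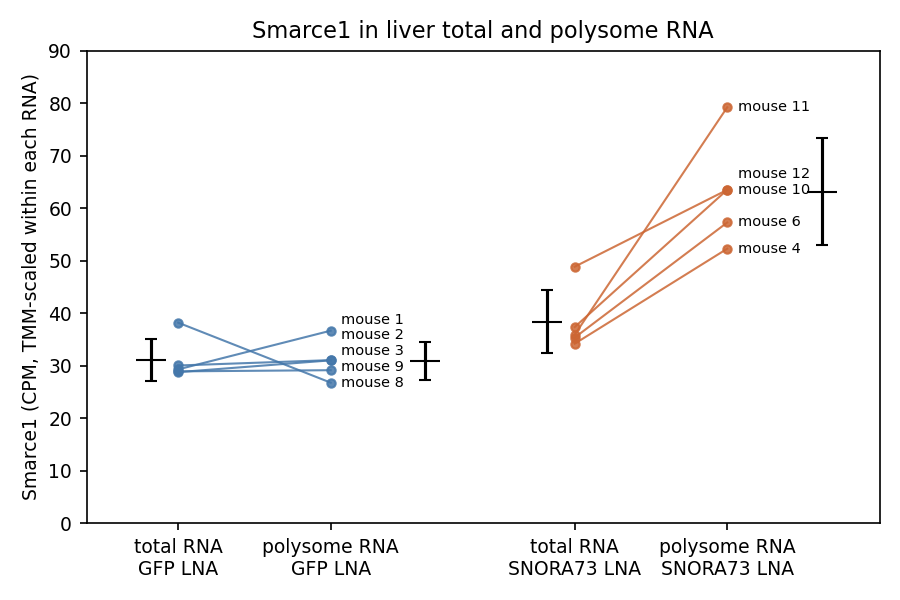
Smarce1 in CPM (y axis, scaled by TMM within each RNA) in total and polysome RNA of livers given GFP LNA (blue) or SNORA73 LNA (orange). Each point is a library, lines join the 2 libraries of a mouse, and black bars are the mean ± SD of 5 mice: the SNORA73 LNA polysome libraries lie between 52.3 and 79.2 CPM, above all 5 GFP LNA polysome libraries, while the total RNA groups overlap through mouse 8.

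The total RNA libraries were not used to choose Smarce1, so the same contrast was tested there. They came from the same livers as the polysome libraries, so that test is not fully independent of the choice. Smarce1 was at 29.3, 30.0, 28.8, 38.2 and 28.9 CPM in total RNA of GFP LNA mice 1, 2, 3, 8 and 9. It was at 34.2, 35.4, 48.9, 35.9 and 37.4 CPM in SNORA73 LNA mice 4, 6, 10, 11 and 12. Each group held 1 mouse apart from the rest, mouse 8 and mouse 10, and the groups overlapped only through mouse 8. The log2 fold change of 0.30 (SE 0.12) did not pass across all genes (edgeR FDR = 0.499), in a comparison where 0.0303% of 13195 genes did. It was 0.18 without mice 9 and 10 (edgeR FDR = 0.545).

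On these scales, the order of Smarce1 levels was SNORA73 LNA polysome RNA, SNORA73 LNA total RNA (38.3 ± 5.99 CPM), GFP LNA total RNA (31.0 ± 4.03 CPM) and GFP LNA polysome RNA. The last 2 did not differ beyond their spread, and the middle 2 overlapped. Because mRNA in polysomes also follows mRNA in the liver as a whole, each mouse's polysome level was set against its own total level on a common scale. This log2 difference was 0.30, 0.00, 0.04, -0.55 and 0.00 in GFP LNA mice 1, 2, 3, 8 and 9. In SNORA73 LNA mice 4, 6, 10, 11 and 12 it was 0.58, 0.68, 0.36, 1.09 and 0.71. The SNORA73 LNA values were all higher, with mouse 10 and GFP LNA mouse 1 nearest to each other. The fitted difference between the groups was 0.73 (SE 0.18), and 0.72 with mice paired. It holds the contrast that chose Smarce1 and was not tested. The pseudogene Smarce1-ps1 was assigned at most 3 counts in a library, against at least 506 for Smarce1. Reads that fit both genes are divided by estimation, so these counts do not give the number shared.

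Both ATPase genes and Smarcc2 had fold changes in polysome RNA close to that of Smarce1, but with more spread between mice. Smarce1 was chosen by its rise in these libraries, which favors a large and even rise, so this contrast with it is a description only. In edgeR fits of polysome RNA alone none of the 3 passed, while DESeq2 called all 3 and 1 edgeR fit of all 20 libraries called Smarca4. Smarca2 was at 158, 129, 137, 143 and 224 CPM in polysome RNA of GFP LNA mice 1, 2, 3, 8 and 9. It was at 261, 186, 211, 624 and 279 CPM in SNORA73 LNA mice 4, 6, 10, 11 and 12. Mouse 11 stood far above all others, and mouse 9 of the GFP LNA group was higher than mice 6 and 10. The log2 fold change was 0.98 (SE 0.30), which did not pass (edgeR FDR = 0.204), and was 0.58 without mouse 11 (edgeR FDR = 0.285, where 0.0539% of all genes passed).

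Smarca4, the alternative ATPase, was at 62.6, 57.3, 57.0, 69.4 and 90.7 CPM in polysome RNA of GFP LNA mice 1, 2, 3, 8 and 9. It was at 92.8, 62.7, 133, 202 and 120 CPM in SNORA73 LNA mice 4, 6, 10, 11 and 12. Only mouse 6 lay within the GFP LNA range. For Smarca4 the log2 fold change was 0.85 (SE 0.26; edgeR FDR = 0.203), and 0.61 without mouse 11 (edgeR FDR = 0.327).

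In total RNA, Smarca4 had the largest log2 fold change of the 10 genes. It was at 37.5, 31.6, 37.0, 34.6 and 49.9 CPM in GFP LNA mice 1, 2, 3, 8 and 9. It was at 62, 49.5, 64.6, 68.7 and 48.3 CPM in SNORA73 LNA mice 4, 6, 10, 11 and 12. The groups overlapped only through mouse 9, which was higher than mice 6 and 12. The log2 fold change of 0.62 (SE 0.14) did not pass with all 10 mice (edgeR FDR = 0.245). It passed without mice 9 and 10, at 0.70 (edgeR FDR = 0.0345, where 0.745% of all genes passed), and without mouse 9 alone, at 0.72 (edgeR FDR = 0.0368, 0.45% of all genes). It also passed with DESeq2 on all 10 mice, at 0.62 (DESeq2 FDR = 0.0141, 0.549% of all genes). In bulk liver, more mRNA per cell and more cells that express a gene cannot be told apart. Smarca2 in total RNA had a log2 fold change of 0.46 (SE 0.21; edgeR FDR = 0.576), with mouse 9 again the highest of the GFP LNA group at 144 CPM and mouse 11 the highest of the SNORA73 LNA group at 206 CPM. Without mouse 11 it was 0.26 (edgeR FDR = 0.777).

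The core scaffold genes differed among themselves. Smarcc2 (BAF170), which with Smarcc1 (BAF155) holds the complex together, was at 73.3, 74.9, 57.3, 69.3 and 69.9 CPM in polysome RNA of GFP LNA mice 1, 2, 3, 8 and 9. It was at 98.0, 69.3, 109, 292 and 111 CPM in SNORA73 LNA mice 4, 6, 10, 11 and 12. The GFP LNA mice lay close together, mouse 6 lay among them, and mouse 11 was again far above the rest. The log2 fold change of 0.98 (SE 0.31; edgeR FDR = 0.22) moved to 0.51 without mouse 11 (edgeR FDR = 0.25). In total RNA it was 0.40 (SE 0.16; edgeR FDR = 0.508), and 0.21 without mouse 11.

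Smarcc1 in polysome RNA ranged from 29.8 to 41.3 CPM in GFP LNA livers. In SNORA73 LNA livers, 4 mice lay between 35.4 and 43.7 CPM and mouse 11 was at 85.7 CPM. Its log2 fold change of 0.46 (SE 0.23; edgeR FDR = 0.402) moved to 0.17 without mouse 11. Smarcb1, which encodes the core subunit SNF5 and is lost in rhabdoid tumors, had a log2 fold change of -0.15 (SE 0.14; edgeR FDR = 0.691), and mouse 11 was the lowest of all 10 polysome libraries at 12.9 CPM. In total RNA, the log2 fold changes of Smarcc1 and Smarcb1 were 0.14 and 0.12.

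Smarcd1 and Smarcd2 encode alternative BAF60 subunits, which link the complex to transcription factors. In polysome RNA their log2 fold changes were 0.19 (SE 0.35) and -0.04 (SE 0.14). Smarcd1 was the least abundant in counts of the 10, with at most 144 counts in a library. Arid1a, the DNA-binding subunit of BAF, was at 41.4 to 54.1 CPM in GFP LNA and 39.1 to 96.3 CPM in SNORA73 LNA polysome RNA. Mouse 11 held the highest value, and the log2 fold change moved from 0.33 to 0.11 without it.

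Arid2, the corresponding subunit of PBAF, was at 16.5 to 20.6 CPM in GFP LNA and 19.8 to 23.9 CPM in SNORA73 LNA polysome RNA. The ranges overlapped narrowly and mouse 11 did not stand apart. Its log2 fold change was 0.23 (SE 0.11; edgeR FDR = 0.401), and 0.20 without mouse 11. In total RNA, the log2 fold changes of Smarcd1, Smarcd2, Arid1a and Arid2 were 0.23, 0.05, 0.10 and -0.03, each with an edgeR FDR of 0.822 or more.

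**Figure D2:**
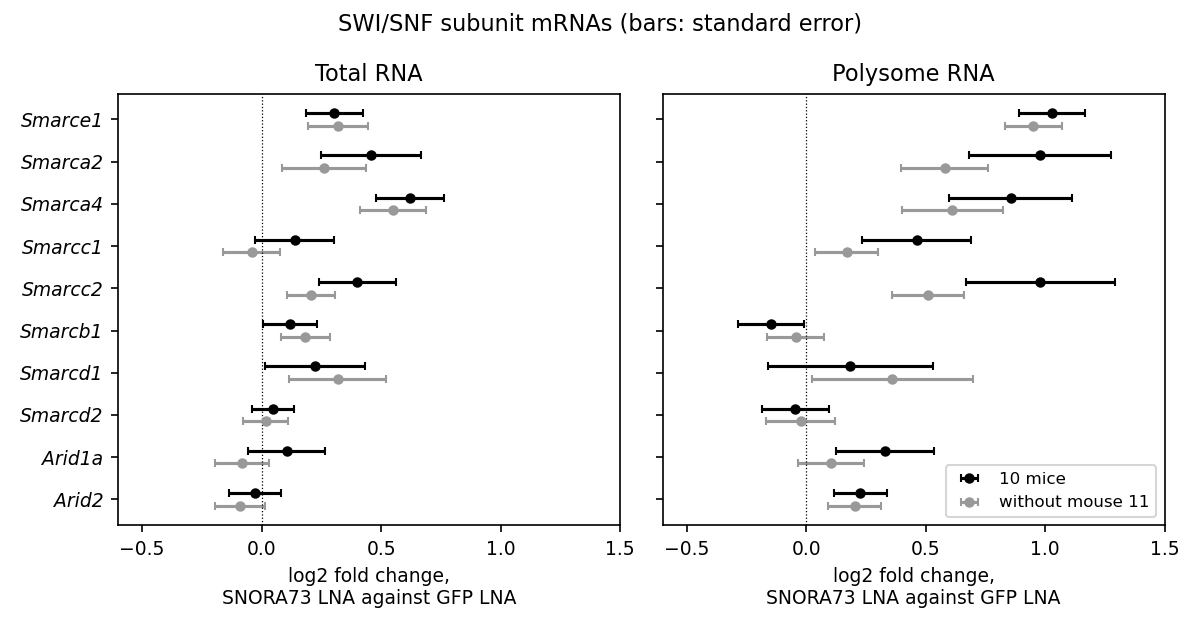
Log2 fold change (x axis, SNORA73 LNA against GFP LNA) of the 10 SWI/SNF mRNAs in total RNA (left) and polysome RNA (right), from edgeR. Points and bars are estimate and standard error for 10 mice (black) and without mouse 11 (gray): in polysome RNA, Smarce1 moves from 1.03 to 0.95, while Smarca2, Smarca4 and Smarcc2 move from 0.98, 0.85 and 0.98 to 0.58, 0.61 and 0.51. Smarce1 was chosen by its rise in polysome RNA, so its place beside the others there is a description only.

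Across the partners, edgeR called 0 of 9 in polysome RNA and 0 of 9 in total RNA. At an unadjusted p under 0.05, polysome RNA had 3 of 9 higher and 0 lower, beside 8.12% and 5.32% of all genes. Total RNA likewise had 3 of 9 higher and 0 lower, beside 4.96% and 3.69% of all genes. Without mouse 11 the count higher was 3 of 9 in polysome RNA, beside 6.62% of all genes, and 1 of 9 in total RNA, beside 4.53%. The median log2 fold change of the partners was 0.33 in polysome RNA and 0.14 in total RNA, beside -0.01 and 0.01 over all genes. Without mouse 11, the medians of the partners were 0.20 and 0.18. Without mice 9 and 10, 0 of 9 passed in polysome RNA, where 0.242% of all genes did, and Smarca2, Smarca4 and Smarcc2 had log2 fold changes of 1.25, 0.96 and 1.05 with edgeR FDR of 0.122, 0.182 and 0.237. None of the 9 partners had groups that did not overlap in polysome RNA, where 3.2% of all genes did. DESeq2 called Smarca2, Smarca4 and Smarcc2 in polysome RNA, with FDR of 0.0355, 0.0419 and 0.0463, where it called 2.63% of all genes, and limma-voom called 0 of 9 in either RNA (0.0153% of all genes in polysome and 0.0379% in total RNA).

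For the partners, the difference between the polysome and the total RNA fold change was also fitted, over all 20 libraries. It was 0.58 (SE 0.38) for Smarcc2, 0.52 (SE 0.39) for Smarca2, 0.32 for Smarcc1, 0.25 for Arid2, 0.23 for Smarca4 and 0.22 for Arid1a. It was -0.03 for Smarcd1, -0.09 for Smarcd2 and -0.26 (SE 0.17) for Smarcb1. Without mouse 11 it was 0.28 for Smarcc2, 0.30 for Smarca2, 0.19 for Smarcc1 and 0.04 for Smarca4. None of the 9 passed in edgeR (0.00725% of all genes did), and 0 of 9 had an unadjusted p below 0.05, beside 2.91% of all genes. With the mice paired, 0 of 9 passed, and an unadjusted p below 0.05 was found for 2 with a positive and 1 with a negative value, beside 5.02% and 3.02% of all genes.

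Mouse 11 was also the highest for Malat1, a nuclear RNA, but not for the other nuclear RNAs looked at. Malat1, a long noncoding RNA that is retained in the nucleus, was at 116, 89.3, 90.6, 89.3 and 145 CPM in polysome RNA of GFP LNA mice 1, 2, 3, 8 and 9. It was at 434, 216, 257, 1403 and 279 CPM in SNORA73 LNA mice 4, 6, 10, 11 and 12. These groups did not overlap, as in 3.2% of all genes. Among the SNORA73 LNA polysome libraries, mouse 11 was the highest and mouse 6 the lowest for Malat1, Smarca2, Smarca4 and Smarcc2 alike. For Smarce1, mouse 11 was the highest and mouse 4 the lowest.

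In total RNA, Malat1 was at 386 to 556 CPM in GFP LNA mice and 396 to 1019 CPM in SNORA73 LNA mice, with mouse 11 again the highest. Neat1, another nuclear RNA, overlapped between groups, at 20.8 to 43.0 and 18.5 to 38.5 CPM in polysome RNA, and mouse 11 was within the range at 33.2 CPM. Meg3, also a nuclear RNA, was near the floor in polysome RNA. It was at 0.045 to 0.457 CPM for GFP LNA and 0.097 to 0.94 CPM for SNORA73 LNA, with mouse 11 at 0.164 CPM. The summed level of 5 markers of liver sinusoidal endothelium also separated the groups in polysome RNA, at 73.8 to 82.7 CPM for GFP LNA and 89.2 to 98.6 CPM for SNORA73 LNA. All 5 of these markers had a higher mean after SNORA73 LNA in polysome RNA and 4 of 5 did in total RNA, where the sums overlapped, and none of the 5 was at 0. They did not rise alike. Their log2 fold changes were 0.17 to 1.005 in polysome RNA (median 0.221) and -0.1 to 1.063 in total RNA (median 0.259). The edgeR test called 1 of the 5 in total RNA, beside 0.0303% of all genes, and 0 in polysome RNA, beside 0.0153%. Without mice 9 and 10 it called 1 in each RNA, beside 0.745% and 0.242%. The part of nuclear RNA or of endothelial cells in the differences of Smarce1 and its partners was not tested.

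**Figure D3:**
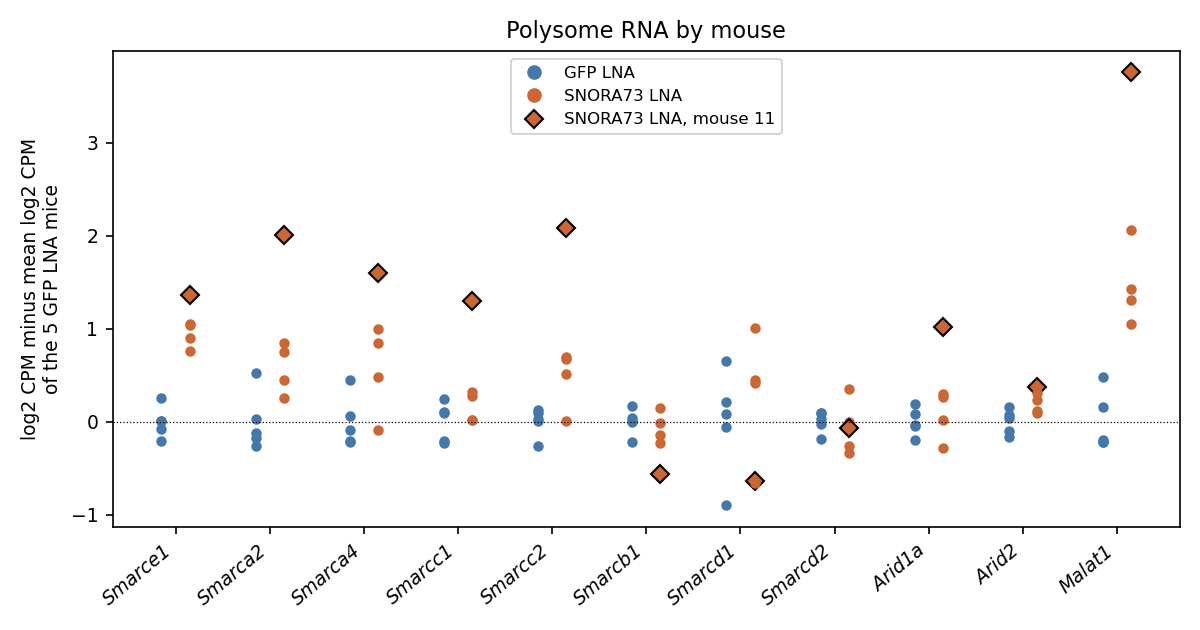
Polysome RNA of each mouse (y axis, log2 CPM minus the mean log2 CPM of the 5 GFP LNA mice) for the 10 SWI/SNF mRNAs and the nuclear RNA Malat1. GFP LNA mice are blue, SNORA73 LNA mice orange and mouse 11 an outlined diamond: mouse 11 is the highest point for Smarce1, Smarca2, Smarca4, Smarcc1, Smarcc2, Arid1a, Arid2 and Malat1, and the lowest of the SNORA73 LNA mice for Smarcb1.

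Gene length was a further property that the choice of genes did not use. The genomic span was 9.83 kb for Smarcd2, 11.7 kb for Smarcd1, 22.0 kb for Smarce1, 24.8 kb for Smarcb1 and 31.4 kb for Smarcc2. It was 77.8 kb for Arid1a, 88.1 kb for Smarca4, 108 kb for Smarcc1, 118 kb for Arid2 and 173 kb for Smarca2. Over all genes, the median log2 fold change in polysome RNA was -0.06 for spans up to 10 kb, -0.03 for 10 to 50 kb, 0.05 for 50 to 100 kb and 0.14 for over 100 kb. Smarce1, Smarcc2, Smarcb1, Smarcd1 and Smarcd2 thus lay in the span classes with a median below 0, and Arid1a, Smarca4, Smarcc1, Arid2 and Smarca2 in those with a median above 0. The part of span was not tested.

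In GFP LNA livers, the subunit mRNAs also differed in how much of them was in polysomes relative to the average mRNA. Smarce1 had about equal levels in both RNAs, with a log2 difference of polysome against total RNA of -0.04 (SE 0.13). Smarca4 and Smarcb1 were higher in polysome RNA by 0.79 (SE 0.22; edgeR FDR = 0.00721) and 0.68 (SE 0.12; edgeR FDR = 0.000158). Arid2 was lower, at -0.38 (SE 0.10; edgeR FDR = 0.00557). Thus 3 of 9 partners passed, 2 higher and 1 lower, in a comparison where 42.8% of all genes passed, 21.8% higher and 21% lower.

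The libraries of a mouse are paired, and with the mouse as a replicate block 7 of 9 partners passed, where 56.1% of all genes did, 28.9% higher and 27.2% lower. Those higher in polysome RNA were then Smarca2 (0.62, SE 0.10), Smarca4 (0.78), Smarcb1 (0.68), Smarcc1 (0.47), Smarcc2 (0.62) and Arid1a (0.31), and Arid2 (-0.38) was lower. The shift had the same sign in all 5 GFP LNA mice for each of these 7 genes. The paired test that picked them favors a shared sign, so this is a description only. Smarca2 was higher in polysome RNA by 0.52 to 0.79 on the log2 scale, Smarcb1 by 0.47 to 0.85 and Smarcc2 by 0.37 to 0.78. Arid2 lay between -0.59 and -0.06. The median over the 9 partners was 0.47 paired, beside 0.01 over all genes. In the same fit, the 18 tested other SWI/SNF subunits had a median of -0.17. The other remodelers set out below had 0.57 (INO80 and SRCAP), 0.34 (NuRD and CHD) and 0.16 (ISWI), and HMG box genes 0.32.

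**Figure D4:**
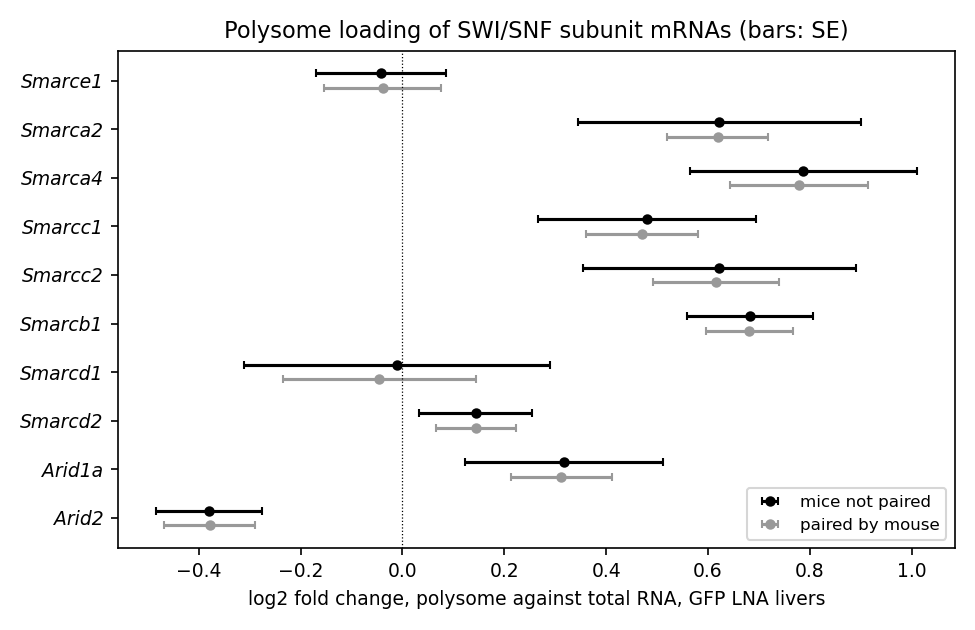
Log2 fold change of polysome against total RNA (x axis) in GFP LNA livers for the 10 SWI/SNF mRNAs, as estimate and standard error from edgeR without pairing (black) and with mice paired (gray). Smarce1 lies at -0.04, 6 partners lie between 0.31 and 0.78 in the paired fit, and Arid2 lies at -0.38.

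The 21 other genes of BAF, PBAF and the noncanonical BAF complex completed the picture. In polysome RNA, 17 of the 21 could be tested and edgeR called 0 (0.0153% of all genes). At an unadjusted p below 0.05 there were 5 with a positive and 0 with a negative fold change, beside 8.12% and 5.32% of all genes, and the median log2 fold change of the 17 was 0.14. In total RNA, 16 could be tested and edgeR called 0 (0.0303% of all genes). There, 1 had a positive and 0 a negative fold change at an unadjusted p below 0.05, beside 4.96% and 3.69% of all genes, and the median of the 16 was 0.07. Actl6b, Dpf1, Bcl11a and Bcl11b were too low to test in either RNA, with at most 17 counts in any library, and Dpf3 was too low in total RNA.

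Among them, Brd9, the bromodomain subunit of noncanonical BAF, was at 14.03, 14.69, 13.98, 15.39 and 21.006 CPM in polysome RNA of GFP LNA mice 1, 2, 3, 8 and 9. It was at 23.91, 21.82, 21.002, 51.47 and 27.33 CPM in SNORA73 LNA mice 4, 6, 10, 11 and 12. Mice 9 and 10 had nearly the same value and mouse 11 was far above the rest. For Brd9 the log2 fold change was 0.88 (SE 0.24; edgeR FDR = 0.172), and 0.59 without mouse 11. In total RNA, Brd9 was at 6.43 to 8.54 CPM in GFP LNA and 8.72 to 11.5 CPM in SNORA73 LNA livers, with no overlap, as in 1.8% of all genes, and a log2 fold change of 0.36 (SE 0.11; edgeR FDR = 0.378).

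Of the 17 tested, only Pbrm1, the bromodomain subunit of PBAF, and Bicra, a subunit of noncanonical BAF, did not overlap between groups in polysome RNA. In that RNA 3.2% of all genes did not overlap, and both genes are named after their values were seen. Pbrm1 was at 38.2 to 51.2 CPM in GFP LNA and 58.2 to 112 CPM in SNORA73 LNA mice (log2 fold change 0.66, SE 0.19; edgeR FDR = 0.184). Bicra was at 1.11 to 1.73 and 1.82 to 2.64 CPM (log2 fold change 0.64, SE 0.23; edgeR FDR = 0.272). DESeq2 called Brd9 and Pbrm1 in polysome RNA, with FDR of 0.0238 and 0.0392, where it called 2.63% of all genes. In 1 edgeR fit of all 20 libraries, which shares 1 estimate of spread between the RNAs, Smarca4 and Brd9 passed in polysome RNA (edgeR FDR = 0.0467 and 0.0233), where 2.3% of all genes did.

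The extremes in polysome RNA were Dpf3, a BAF subunit that reads histone marks, at 1.44 (SE 0.59) with at most 19 counts in a library, and Bcl7c, which encodes a small accessory subunit, at -0.28 (SE 0.15). Against total RNA in GFP LNA livers, Brd9 (0.99), the BAF60 gene Smarcd3 (0.80), and the PBAF subunits Brd7 (0.73) and Phf10 (0.44) were higher in polysome RNA and Ss18 (-0.47), a subunit of BAF and noncanonical BAF, was lower, each with an edgeR FDR of 0.0215 or less. Of the subunit genes other than Smarce1, 27 could be tested here and 8 passed, beside 42.8% of all genes. Without SNORA73 LNA mouse 11, which is in the fit but not in the contrast, 15 passed. Over all genes, 6271 of 13688 passed in that fit, beside 5909 of 13795 with all mice. With the mouse as a replicate block 16 of 27 passed, beside 56.1% of all genes, and the 4 lower ones were Arid2, Ss18, Arid1b (-0.43) and Pbrm1 (-0.28).

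Other chromatin remodelers were set beside SWI/SNF in polysome RNA, where all genes had a median log2 fold change of -0.01. The median was 0.39 for 12 tested ISWI genes, 0.33 for 18 NuRD and CHD genes, 0.02 for 19 INO80 and SRCAP genes and 0.40 for 15 genes with an HMG box like that of Smarce1. Without mouse 11 these medians were 0.06, 0.23, 0.02 and 0.17. The edgeR test called 0 genes of these lists. At an unadjusted p below 0.05, 3, 6, 2 and 6 genes had a positive value, beside 8.12% of all genes, and 2 ISWI genes and 0 of the others a negative one, beside 5.32%. Without mouse 11, 2, 4, 0 and 6 had a positive value, beside 6.62% of all genes. The SWI/SNF partners had medians of 0.33 and, without mouse 11, 0.20, so their place among these lists depended on that mouse, and SWI/SNF was not tested against them. In total RNA the medians of the lists, in the same order, were 0.15, 0.153, 0.135 and 0.148, beside 0.139 for the partners and 0.007 over all genes. Without mouse 11 they were 0.043, 0.109, 0.107 and 0.08 there, beside 0.184 for the partners.

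The genes whose level followed Smarce1 most closely over the 10 polysome libraries were Anp32b, Tm2d3, Gtf3c6, 1700021F05Rik and Ppp1r11. Their Pearson r with Smarce1 in log2 CPM was 0.97, 0.969, 0.959, 0.957 and 0.955, the highest of 8274 genes compared. Over the 10 total RNA libraries, r was 0.541, 0.618, 0.901, 0.721 and 0.89. These are descriptions over libraries that share the division into LNA groups, on which any gene that separates the groups is correlated with Smarce1. Anp32b, which encodes an acidic histone chaperone, was at 110.6 CPM in GFP LNA and 382.3 CPM in SNORA73 LNA polysome RNA on average, a log2 fold change of 1.79. No SWI/SNF partner was among these 5.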

How the data were processed

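Livers of 10 mice gave 20 libraries, grouped by the sample labels, and each column of the table was matched to a library by its title. The authors trimmed reads with fastp, removed rRNA reads, estimated transcript abundance with kallisto and summed it to genes with tximport, and deposited estimated counts per gene. The submitters' processing notes name Bowtie2, SAMtools and GRCm38 as well. The libraries were polyA-selected, and SNORA73 had few or no counts. The strand option of kallisto is not given in the sources used here, and kallisto shares reads among similar transcripts, so counts of paralogs and pseudogenes are uncertain.

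The estimated counts were rounded. Symbols were matched for 51903 of 53028 gene identifiers. A gene was kept when 4 or more libraries of a fit exceeded 0.5 CPM, and tested by the quasi-likelihood test of edgeR 4.0.16 (R 4.3.3) after TMM scaling, with Benjamini-Hochberg adjustment over all genes tested and an FDR threshold of 0.05. Total and polysome RNA were fitted apart, and comparisons between RNAs over all 20 libraries. Each library of an RNA is a separate mouse, so the tests in fits of a single RNA measure the spread between mice. The unpaired fits of all 20 libraries took both libraries of a mouse as independent. Alternatives were limma-voom (the method of the study, run here with limma 3.58.1), DESeq2 1.42.0, other scalings and filters, and 1 fit of all libraries. Added pseudogene counts, mice 9 and 10 or each mouse left out, and the mouse as a replicate block were alternatives as well. The tests without pairing were checked on simulated counts. These were drawn independently for each library with the spread of total RNA. The check thus does not cover the paired fits, the correlation of libraries within a mouse or the spread in polysome RNA.

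The mouse number pairs libraries because both come from 1 liver. The deviations of the 2 libraries of a mouse from their group means correlated at 0.127 to 0.635, and its own partner was the closest in 9 of 10 mice.

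The members, gene lists and tests were chosen with earlier results of these data known. Malat1, Neat1, Meg3, the span classes, and the naming of Pbrm1, Bicra and Arid1b were chosen after the data were seen. Named genes were the 10 members, the other subunits past the FDR threshold in a reported fit without pairing or with the highest or lowest log2 fold change in polysome RNA, and the 5 genes with the highest correlation with Smarce1. Gene positions and spans came from the RefSeq annotation of GRCm38.p6.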

Additional observations from a re-analysis of the deposited data

Results flagged for a closer look

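In 4 of the 40 groups of 5 libraries examined (10 genes in 4 groups), 1 mouse stood apart from the other mice of its group by the gap to its nearest neighbor relative to the group's range in log2 CPM, and chance alone gives about 1 in 20. Smarce1 in total RNA was at 38.2 CPM in GFP LNA mouse 8, where the nearest mouse was at 30.0 CPM. Smarce1 in total RNA was at 48.9 CPM in SNORA73 LNA mouse 10, where the nearest was at 37.4 CPM. Smarca2 in total RNA was at 144 CPM in GFP LNA mouse 9, where the nearest was at 96.8 CPM. Smarcc1 in polysome RNA was at 85.7 CPM in SNORA73 LNA mouse 11, where the nearest was at 43.7 CPM. On the CPM scale, tried after the data were seen, 6 groups did, the 4 above and mouse 11 for Smarca2 (624 CPM, nearest 279 CPM) and Smarcc2 (292 CPM, nearest 111 CPM) in polysome RNA.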

How the results depend on the processing

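Smarce1 kept its direction in polysome RNA (0.864 to 1.098) and in total RNA (0.155 to 0.382) under every alternative run, but not in polysome against total RNA of GFP LNA livers, where its value was near 0. The polysome contrast chose the gene, so its kept direction there is a description only. Among the 30 other subunit genes, the count called in total RNA was 0 in the reported test and 1 (Smarca4) with DESeq2, without mice 9 and 10, and without GFP LNA mouse 9, so that leaving out each mouse in turn gave 0 to 1. In polysome RNA it was 0 in the reported test, 5 with DESeq2, 2 (Smarca4 and Brd9) in 1 fit of all 20 libraries, and 0 with any 1 mouse left out. For polysome against total RNA in GFP LNA livers it was 8, 16 with the mouse as a replicate block, and 7 to 15 with 1 mouse left out, the 15 without SNORA73 LNA mouse 11. Over all genes, 5909 of 13795 passed in the reported test and 6271 of 13688 without mouse 11. Without GFP LNA mouse 8, where 7 subunit genes passed, 4741 of 13689 genes did. The replicate block changed no other call among the 9 partners.

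Scaling by library totals moved the median of all genes to -0.14 in total RNA and -0.17 in polysome RNA. With it, the log2 fold changes of Smarcb1, Smarcd2, Arid1a and Brd7 in total RNA turned to -0.028, -0.094, -0.036 and -0.001, that of Ss18 in polysome RNA to -0.046, and Smarcd1 in polysome against total RNA to 0.043. Without mice 9 and 10, Arid2 in total RNA turned to 0.091, Smarcd1, Smarcd2 and Smarcd3 in polysome RNA to -0.242, 0.022 and 0.081, and Smarcd1 in polysome against total RNA to 0.046. With limma-voom, Phf10 in total RNA turned to 0.003. Leaving out 1 mouse turned the sign of Smarcc1 (-0.041 to 0.242), Arid1a (-0.08 to 0.203), Arid2 (-0.09 to 0.041) and Phf10 (-0.071 to 0.054) in total RNA, and of Smarcd1 (-0.076 to 0.376) and Smarcd2 (-0.156 to 0.029) in polysome RNA. It also turned Smarcd1 in the change beyond total RNA (-0.197 to 0.166), and Smarcd1 (-0.22 to 0.103), Dpf3 (-0.519 to 0.085) and Smarce1 (-0.137 to 0.091, positive without GFP LNA mouse 8) in polysome against total RNA. None of these values was called in the reported test, and the cause was not tested. Of the single-gene values under alternatives, 1164 counted as kept, 32 reversed, 22 became called and 5 lost their call. These counts leave out Smarce1 in total and polysome RNA. Kept meant the same direction and call, except for Smarce1 in the comparisons between RNAs. There it was judged only by a change no larger than its SD between mice in polysome RNA. Its sign changes in polysome against total RNA are thus not among the 32.

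Depth limits the low subunit genes named here, Smarcd1, Smarcd3, Bicra and Dpf3, with at most 144, 51, 82 and 19 counts in a library.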
